A study of Homo sapiens with 51 samples.

Results

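The 10 receptor genes described here were followed across pancreatic ductal adenocarcinoma (PDA) cell lines given OVOL2, a zinc-finger transcription factor that favours the epithelial state. They were the 4 fibroblast growth factor (FGF) receptors FGFR1, FGFR2, FGFR3 and FGFR4, the hepatocyte growth factor receptor MET and its relative MST1R, the discoidin domain receptors DDR1 and DDR2, the platelet-derived growth factor receptor PDGFRB and the ephrin receptor EPHA2. They were taken by symbol from a table of 25421 genes. They were read as an epithelial set (FGFR2, FGFR3, MST1R, DDR1), a mesenchymal set (FGFR1, PDGFRB, DDR2) and 3 further receptors (FGFR4, MET, EPHA2). Counts came from PLATE-seq, a bulk RNA assay in which transcript ends are barcoded well by well, in 51 libraries that made 17 groups of 3. For each of the lines PK45H, PANC1 and KP4 there were 5 groups. They were untreated cells, cells transduced with lentiviral mCherry (a fluorescent protein, the negative control), cells with lentiviral OVOL2, and the same 2 constructs co-transduced with M2rtTA, a transactivator of tetracycline-inducible promoters. The transduced cells received virus at a multiplicity of infection of 2 with polybrene at 8 µg/ml, and from the next day were kept in doxycycline (0.6 µg/ml) with puromycin for selection (2.5 µg/ml). RNA was taken after 6 days. HPAFII and PATU8988S had untreated libraries only. All 5 are established cell lines, and the labels do not give the promoter of the OVOL2 and mCherry constructs.

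Receptor tyrosine kinases are single-pass membrane proteins that dimerise when a ligand binds and then phosphorylate each other and their adaptors. FGF receptors bind FGFs together with heparan sulphate, and splicing of FGFR2 and FGFR3 gives forms typical of epithelial or of mesenchymal cells, which counts per gene do not separate. MET and MST1R (also called RON) are the receptors for hepatocyte growth factor and macrophage-stimulating protein, whose precursors are cut by serine proteases such as matriptase. DDR1 and DDR2 are unusual in that their ligand is collagen: DDR1 is known from epithelia and DDR2 from fibroblasts and other mesenchymal cells.

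OVOL proteins and the mesenchymal repressors ZEB1 and ZEB2 both act on promoters, so the promoter windows of the receptors were searched for an OVOL core motif (CCGTTA) and for the ZEB E-box (CACCTG), each on both strands. Windows of 300 bases, from 250 before to 50 after a listed start, were taken from RefSeq on GRCh38.p14, with 23 windows for 9 of the receptors. The windows of FGFR1 were not analysed here. The OVOL core was in 0 of the 23 windows and in 3.07% of 35116 windows over all genes. The E-box was in 7 of the 23 windows, those of MST1R, DDR1, FGFR4 and FGFR2, and in 20.6% of the same 35116 windows. DDR1 had it in 4 of 8 windows and FGFR2 in 1 of 5, and 2 of the DDR1 windows held one shared copy. The letters were in no window of FGFR3, MET, EPHA2, DDR2 or PDGFRB, which says only that these bases are not there. Below are windows of MST1R (chr3:49903824-49904123, minus strand), of DDR1 (chr6:30883834-30884133, plus strand) and of FGFR4 (chr5:177086665-177086964, plus strand), 5′ to 3′. These 3 receptors were chosen because they rose in both OVOL2 arms over the lines. MST1R had 1 window. For the others 1 window that holds the E-box is shown, while it was in 4 of 8 windows of DDR1 and 1 of 2 of FGFR4. Capitals mark the E-box, which reads CAGGTG in these windows because it lies on the other strand.
MST1R: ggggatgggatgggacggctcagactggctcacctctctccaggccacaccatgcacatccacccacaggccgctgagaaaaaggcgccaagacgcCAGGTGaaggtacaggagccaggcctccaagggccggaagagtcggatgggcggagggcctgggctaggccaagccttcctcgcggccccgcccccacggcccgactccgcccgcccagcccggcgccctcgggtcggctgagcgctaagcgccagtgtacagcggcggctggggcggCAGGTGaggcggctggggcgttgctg
DDR1: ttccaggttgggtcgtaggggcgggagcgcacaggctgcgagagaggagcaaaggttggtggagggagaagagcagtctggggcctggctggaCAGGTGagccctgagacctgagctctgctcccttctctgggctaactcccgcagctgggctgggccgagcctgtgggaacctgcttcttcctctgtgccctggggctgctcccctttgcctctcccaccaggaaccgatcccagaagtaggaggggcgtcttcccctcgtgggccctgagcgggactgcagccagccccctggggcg
FGFR4: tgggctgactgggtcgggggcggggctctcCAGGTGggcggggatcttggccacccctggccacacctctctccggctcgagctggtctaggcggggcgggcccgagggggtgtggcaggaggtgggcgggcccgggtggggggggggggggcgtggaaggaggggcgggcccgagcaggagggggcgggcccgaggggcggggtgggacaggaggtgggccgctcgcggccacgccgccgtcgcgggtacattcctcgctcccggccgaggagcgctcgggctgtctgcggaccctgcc
The MST1R window holds 2 E-boxes, at 154 bases before and 24 bases after the listed start. The E-box lies 157 bases before the start in the DDR1 window and 220 bases before it in the FGFR4 window. No binding was measured here, so a match describes the sequence only.

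Library totals ran from 1165399 to 7490556 counts, and the lowest total belonged to HPAFII replicate 2. In that library DDR1 stood at 0.226 times the mean of its 2 mates and EPHA2 at 0.438 times, so values that rest on it are given without it where the call changes. OVOL2 itself was at 0.202 to 1.87 CPM (counts per 1000000 counts of the library) in the 9 OVOL2 libraries without M2rtTA and at 0 to 2.21 CPM in the 9 mCherry libraries. With M2rtTA the ranges were 1.46 to 10.5 and 0 to 1.74 CPM. The change was −0.09 (adjusted p = 0.926) without and 2.15 (adjusted p = 0.00021) with M2rtTA on the log2 scale. So OVOL2 counts matched the library labels where M2rtTA was present and did not tell the 2 constructs apart without it. All 6 ductal epithelial markers were detected in every line, with a summed level of 615 to 1210 CPM in KP4 and 5340 to 14500 CPM in HPAFII. That sum was also higher with OVOL2 than with mCherry in KP4 (1060 to 1210 against 760 to 811 CPM, and with M2rtTA 965 to 1070 against 615 to 627). It was higher in PK45H too (4340 to 4730 against 2580 to 2990, and with M2rtTA 4640 to 4780 against 1850 to 1990). In PANC1 the ranges overlapped, at 2320 to 2610 with OVOL2 against 2200 to 2640 with mCherry. With M2rtTA the PANC1 range lay mostly lower with OVOL2, at 1980 to 2280 against 2230 to 2550. The 3 endothelial and the 3 leukocyte markers summed to at most 13.7 and 9.99 CPM. The 6 fibroblast markers summed to at most 65.6 CPM, and LUM was at 0 to 0.582 CPM in the M2rtTA groups. With M2rtTA the fibroblast sum was higher under OVOL2 than under mCherry, in KP4 at 43.3 to 52.1 against 13.6 to 24.9 CPM. The corresponding PANC1 sums were 50.5 to 65.6 against 23.3 to 35.6, and those of PK45H 29.6 to 36.3 against 11.4 to 14.6. Most of that sum was COL1A1, at 37.1 to 45.2 CPM in the KP4 OVOL2 libraries with M2rtTA, and the part of both marker sums in the receptor results was not tested. In bulk RNA, fewer cells of a kind and less RNA per cell cannot be told apart. The lines were transduced in triplicate, and the p-values measure the spread between those wells.

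Averaged over KP4, PANC1 and PK45H, OVOL2 was accompanied in both arms by more RNA for the epithelial receptors DDR1 and MST1R and less for FGFR1. FGFR2 and FGFR3 rose, and MET fell, in the M2rtTA arm only, where the difference between the arms also passed for each. Without M2rtTA, 4 of the 9 receptors tested passed an adjusted p of 0.05, against 18.1% of the 14943 genes tested: DDR1, MST1R and FGFR4 were higher, as were 9.32% of all genes, and FGFR1 was lower, as were 8.81%. With M2rtTA, 8 of 9 passed, against 32.9% of all genes: FGFR2, FGFR3, MST1R, DDR1, FGFR4 and EPHA2 were higher (15.7% of all genes), FGFR1 and MET lower (17.3%). DDR2 missed the threshold with M2rtTA at 0.63 ± 0.252 (log2 fold change ± SE, adjusted p = 0.0509), and passed under RLE scaling (adjusted p = 0.0442), with a mean count of at least 10 (adjusted p = 0.0397) and in 6 of 18 fits that left out 1 library. Those were the fits without OVOL2 replicate 1 or 2 or mCherry replicate 3 of KP4, OVOL2 replicate 3 of PANC1, or OVOL2 or mCherry replicate 3 of PK45H, all in the M2rtTA arm, with changes of 0.69 to 0.79 (adjusted p = 0.0202 to 0.0484). PDGFRB had too few counts to be tested. So all 4 epithelial receptors rose in the M2rtTA arm, while of the 3 mesenchymal ones only FGFR1 fell. FGFR2, which had few counts, passed the filter on low counts mainly through the OVOL2 groups with M2rtTA. The receptors were chosen with earlier results of these data known. Their counts beside the shares of all genes, here and below, are therefore descriptive and no test of the set. Changes below are log2 fold changes of OVOL2 over mCherry with their SE, and adjusted p-values are edgeR's over all genes tested. Where groups of 3 libraries are said not to overlap, this describes those libraries only. The share of all genes without overlap is not given here.

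**Figure D1:**
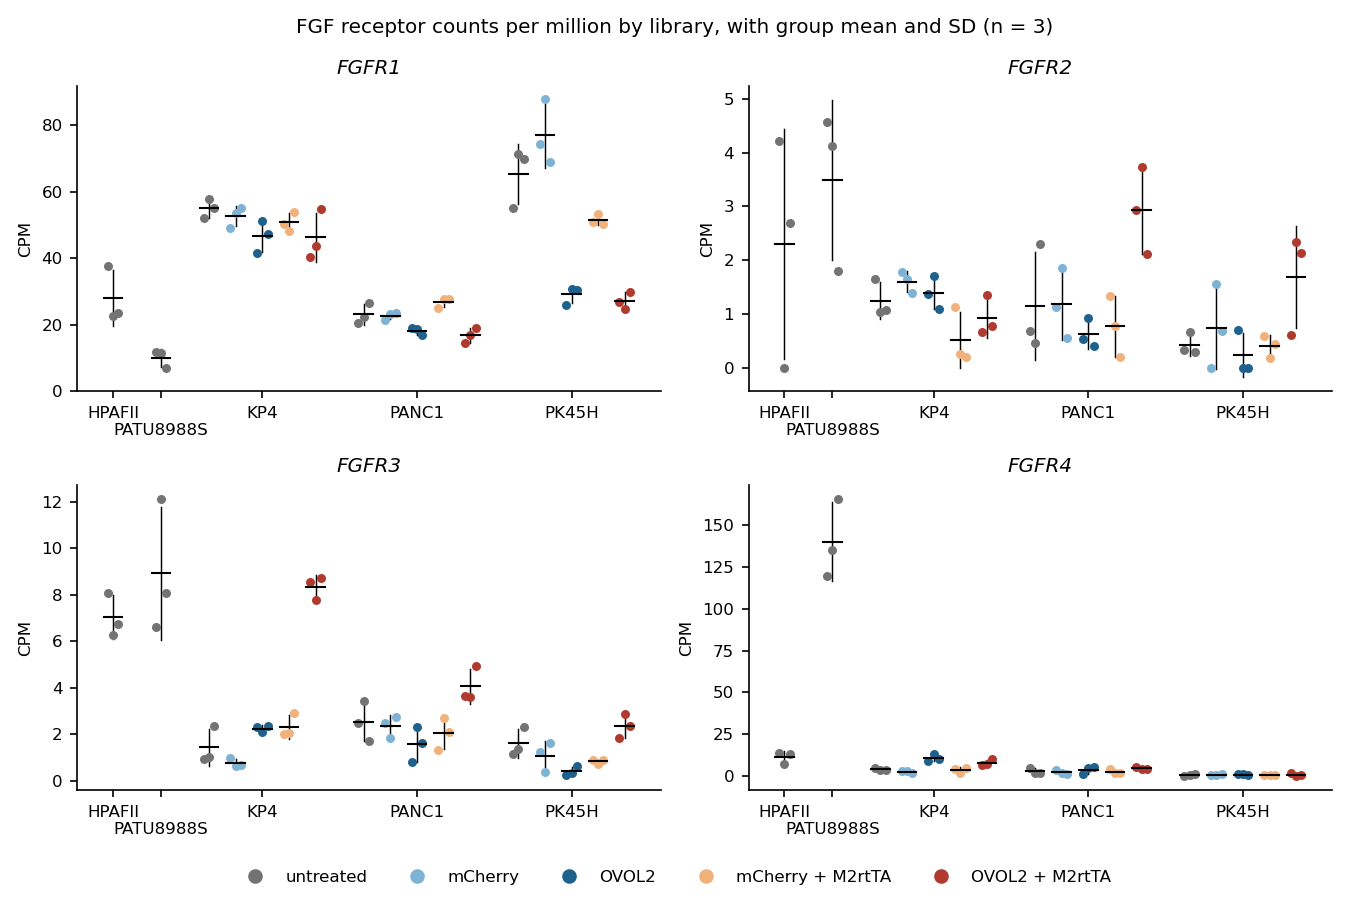
CPM of the 4 FGF receptors in every library (points), with the mean and SD of the 3 libraries of each group (lines). FGFR1 falls with OVOL2 in PK45H, FGFR3 has its highest group mean with OVOL2 and M2rtTA within each transduced line, and FGFR4 in PATU8988S lies at 120 to 166 CPM, far above every other group.

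DDR1 (chr6:30876421-30900156, plus strand, GRCh38 with GENCODE 29), the epithelial collagen receptor, rose with OVOL2 in KP4 and in PANC1 and did not pass in PK45H. Between the 3 lines the effect differed with M2rtTA (adjusted p = 0.0265) but did not pass without it (adjusted p = 0.155). KP4 mCherry libraries held 5.81, 6.17 and 4.84 CPM and KP4 OVOL2 libraries 14.8, 16.0 and 10.8 CPM. With M2rtTA the same line held 4.94, 8.18 and 5.25 CPM with mCherry and 12.8, 15.4 and 17.7 CPM with OVOL2. The 2 constructs did not overlap in either KP4 arm, and the changes were 1.30 ± 0.238 (adjusted p = 0.00483) and 1.33 ± 0.24 (adjusted p = 0.0013). PANC1 libraries went from 9.24, 6.90 and 7.54 CPM with mCherry to 13.2, 15.01 and 14.3 CPM with OVOL2, and with M2rtTA from 10.5, 7.96 and 8.74 to 17.8, 16.9 and 18.6 CPM. Here too every OVOL2 library lay above every mCherry library, with changes of 0.86 ± 0.182 (adjusted p = 0.014) and 1.01 ± 0.18 (adjusted p = 0.00194). The PANC1 call without M2rtTA was lost without any of mCherry replicate 2, mCherry replicate 3 or OVOL2 replicate 2 (adjusted p up to 0.0661). PK45H held 3.45 to 7.38 CPM with mCherry and 3.95 to 7.75 with OVOL2, and with M2rtTA 5.92 to 10.03 and 6.64 to 7.90 CPM. These groups overlapped, at 0.06 ± 0.351 and −0.05 ± 0.327, and the 95% interval with M2rtTA ran from −0.69 to 0.59. Averaged over lines, the DDR1 change was 0.76 ± 0.149 (adjusted p = 0.000281) without and 0.76 ± 0.145 (adjusted p = 8.55e-05) with M2rtTA. When all libraries were thinned at random to the smallest total, 10 further draws gave 0.41 to 0.96 with a call in 5 without M2rtTA, and 0.56 to 1.12 with a call in 8 with it.

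MST1R (chr3:49887002-49903873, minus strand), the receptor for macrophage-stimulating protein, had its rise in PK45H, the line in which DDR1 did not pass the test. PK45H mCherry libraries held 4.42, 2.72 and 7.13 CPM, and OVOL2 libraries 10.2, 16.0 and 17.9 CPM. With M2rtTA the values were 6.21, 7.60 and 6.54 CPM against 21.5, 11.9 and 22.1 CPM. Each OVOL2 library was above each mCherry library in both arms, with changes of 1.55 ± 0.325 (adjusted p = 0.00903) and 1.46 ± 0.3 (adjusted p = 0.00486). KP4 changed by 0.31 ± 0.504 without and 0.82 ± 0.542 with M2rtTA, and PANC1 by 0.11 ± 0.347 and 0.03 ± 0.343, none of which passed. The test for a difference between lines did not pass either (adjusted p = 0.24 without and 0.214 with M2rtTA), so MST1R is not shown to be particular to PK45H. Over lines, MST1R rose by 0.68 ± 0.233 (adjusted p = 0.0385) and 0.77 ± 0.234 (adjusted p = 0.0104). The call without M2rtTA was lost in 12 of the 18 fits that left out 1 library, spread over all 3 lines and both constructs, with a change of 0.58 to 0.82. The call with M2rtTA was kept with any 1 library left out, and in 3 of 10 further draws thinned to the smallest library. In those draws the call without M2rtTA was kept in 0 of 10.

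FGFR3 (chr4:1793293-1808872, plus strand), an FGF receptor of epithelia and cartilage, was low in the transduced lines and rose most clearly when OVOL2 and M2rtTA were combined. In KP4 it stood at 2.02, 2.05 and 2.92 CPM with mCherry and M2rtTA and at 8.56, 7.77 and 8.72 CPM with OVOL2 and M2rtTA. PANC1 held 1.34, 2.72 and 2.08 against 3.66, 3.59 and 4.94 CPM, and PK45H 0.887, 0.742 and 0.872 against 1.82, 2.85 and 2.37 CPM. No OVOL2 library overlapped an mCherry library in any line. KP4 changed by 1.82 ± 0.32 (adjusted p = 0.00108) and PK45H by 1.46 ± 0.464 (adjusted p = 0.0472), while the PANC1 change of 1.00 ± 0.404 did not pass (adjusted p = 0.121). The PK45H call, on 4 to 11 counts a library, was lost in each of the 6 fits that left out 1 library. Over lines the rise was 1.43 ± 0.215 (adjusted p = 2.19e-06) and kept its call when any 1 library was left out.

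Without M2rtTA the FGFR3 picture differed from line to line. KP4 went from 0.968, 0.617 and 0.691 CPM to 2.29, 2.10 and 2.35 CPM, a rise of 1.52 ± 0.396 (adjusted p = 0.0347) that rests on 3 to 6 counts per mCherry library and was lost whenever 1 of its 6 libraries was left out. PANC1 and PK45H had lower means with OVOL2, at −0.53 ± 0.435 and −1.48 ± 0.592, neither of which passed. In KP4, mCherry libraries with M2rtTA already lay above those without it, by 1.59 ± 0.406, at an adjusted p of 0.494.

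FGFR2 (chr10:121478334-121598458, minus strand), whose epithelial splice form binds FGFs made by mesenchyme, was near the detection floor: 20 of the 51 libraries held 3 counts or fewer. PANC1 with M2rtTA showed the clearest values, 1.34, 0.776 and 0.208 CPM with mCherry and 2.93, 3.73 and 2.12 CPM with OVOL2. Those groups did not overlap, and the change of 1.95 ± 0.651 had an adjusted p of 0.0612. PK45H held 0.592, 0.185 and 0.436 against 0.608, 2.33 and 2.13 CPM, and KP4 1.12, 0.256 and 0.194 against 0.672, 1.35 and 0.770 CPM. In KP4 the groups overlapped, and FGFR2 did not pass the filter on low counts in the fits of KP4 or PK45H alone. Over lines it rose by 1.57 ± 0.438 with M2rtTA (adjusted p = 0.00512), while without M2rtTA it stood at −0.90 ± 0.48 (adjusted p = 0.209). Without PK45H OVOL2 replicate 1, the only library of its group with FGFR2 counts, the latter was −1.98 (adjusted p = 0.0248). Outside the OVOL2 groups with M2rtTA, the highest library of these lines held 2.30 CPM, in untreated PANC1. FGFR2 thus passed the filter on low counts mainly through the groups where it is high. Its rise over lines is therefore descriptive, and it was tested in 0 of 10 thinned draws.

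FGFR1 (chr8:38400215-38468834, minus strand), the FGF receptor of mesenchymal cells, fell most in PK45H. PK45H mCherry libraries held 74.2, 87.8 and 68.8 CPM and OVOL2 libraries 26, 30.7 and 30.6 CPM, a change of −1.43 ± 0.151 (adjusted p = 4.75e-05). With M2rtTA the values were 51.02, 53.2 and 50.1 against 26.7, 24.6 and 29.9 CPM, a change of −0.92 ± 0.15 (adjusted p = 0.000997). The OVOL2 libraries of both arms lay at like levels, while mCherry libraries with M2rtTA were below those without it by 0.59, at an adjusted p of 0.275 by edgeR. PANC1 held 21.4, 23.2 and 23.4 against 18.8, 18.7 and 16.7 CPM (−0.32 ± 0.152, adjusted p = 0.275), and with M2rtTA 24.9, 27.6 and 27.7 against 14.4, 16.9 and 18.8 CPM (−0.64 ± 0.152, adjusted p = 0.0119). Every PANC1 OVOL2 library was below every mCherry library in both arms, although only the M2rtTA arm passed the test. In KP4, where mCherry libraries held 48.1 to 55.1 CPM over both arms, OVOL2 libraries held 40.3 to 54.7 CPM, and the changes of −0.17 ± 0.141 and −0.13 ± 0.141 did not pass. Over lines FGFR1 fell by 0.62 (SE 0.0777, adjusted p = 2.17e-07) without and by 0.57 (SE 0.0777, adjusted p = 4.51e-07) with M2rtTA, and no left-out library, alternative processing or thinned draw ended either call.

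DDR2 (chr1:162631373-162787400, plus strand), the collagen receptor of mesenchymal cells, did not fall with OVOL2 in any test. Within lines its 1 call was a rise in KP4 with M2rtTA, from 1.57, 2.81 and 2.92 CPM to 4.70, 3.89 and 11.3 CPM (1.40 ± 0.412, adjusted p = 0.0246). OVOL2 replicate 3 stood apart, and without it the change was 0.80 and no longer passed. The call was also lost without mCherry replicate 1 or replicate 2 of that arm. PANC1 moved by −0.27 ± 0.371 and PK45H by 0.77 ± 0.536 with M2rtTA, neither passing. PDGFRB (chr5:150113837-150155872, minus strand), a receptor of fibroblasts and pericytes, had 0 to 5 counts in every library and 48 counts in all 51, at most 0.906 CPM. At that depth no change in PDGFRB was detectable, and its 3 to 5 counts in single libraries carry no direction.

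**Figure D2:**
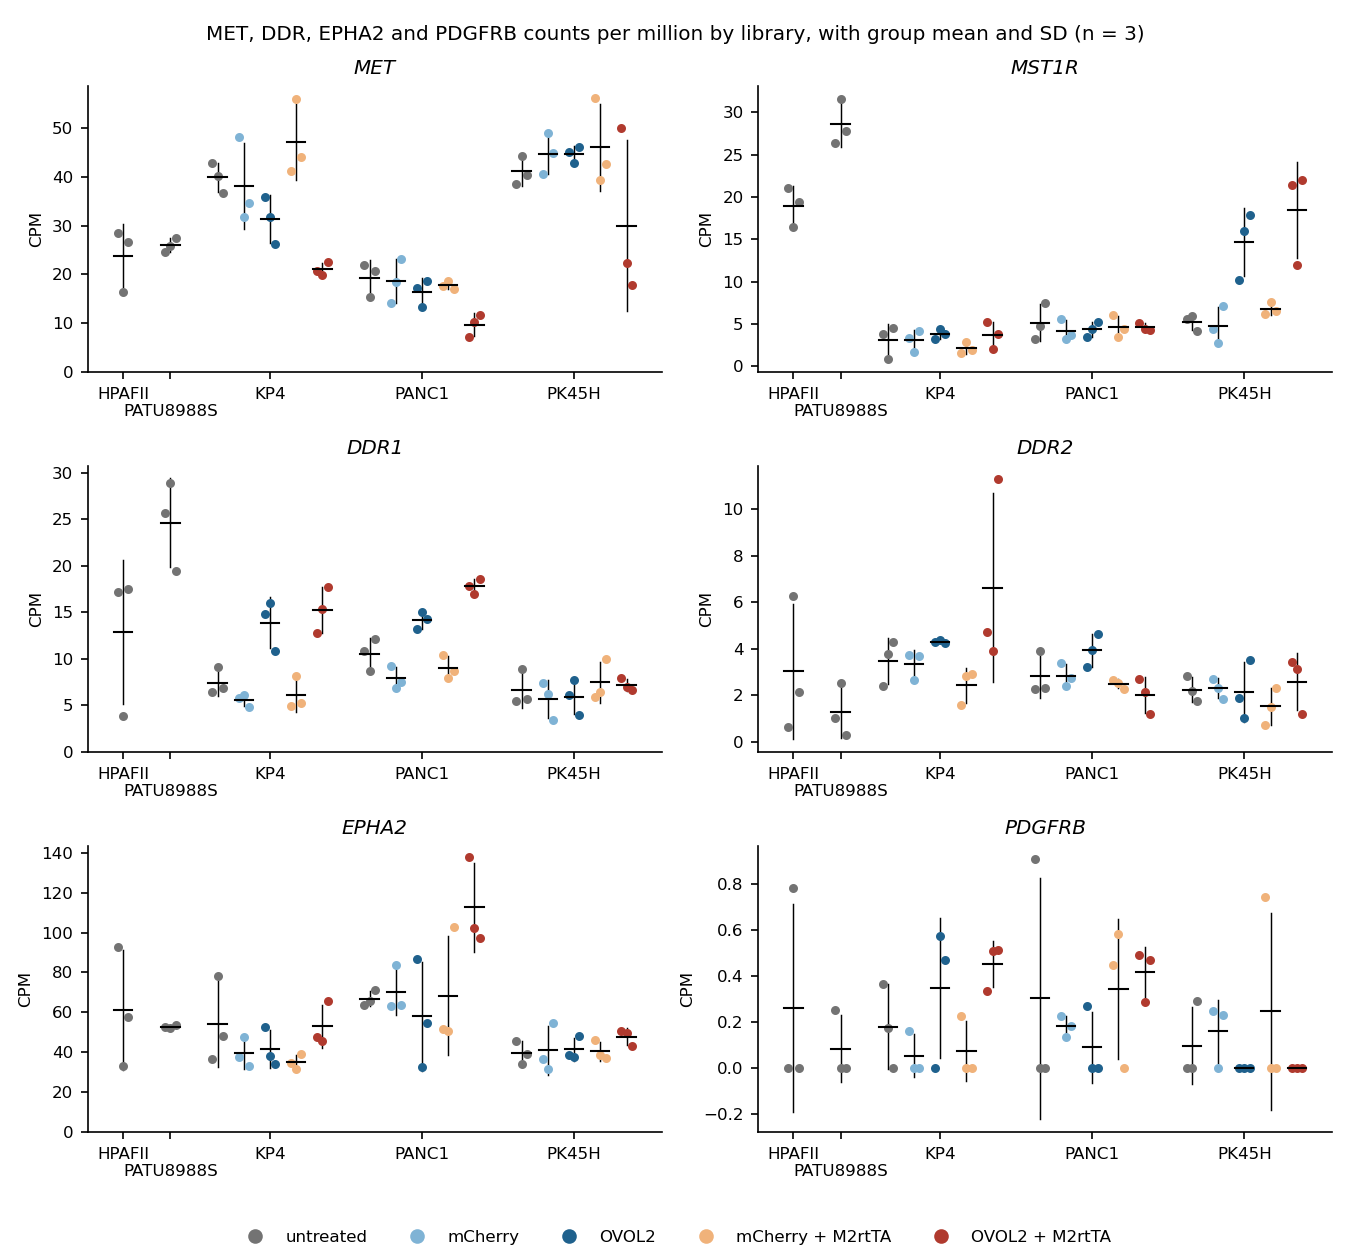
CPM of MET, MST1R, DDR1, DDR2, EPHA2 and PDGFRB in every library (points), with the group mean and SD of 3 libraries (lines, which for PDGFRB reach below 0). DDR1 is higher with OVOL2 in KP4 and PANC1, MST1R in PK45H, and MET is lower with OVOL2 and M2rtTA except in 1 PK45H library at 50.02 CPM.

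MET (chr7:116672390-116798386, plus strand), the hepatocyte growth factor receptor, was lower with OVOL2 only where M2rtTA was present, by the tests of each arm. KP4 held 41.3, 56.0 and 44.1 CPM with mCherry and M2rtTA and 20.6, 19.9 and 22.6 CPM with OVOL2 and M2rtTA, a change of −1.16 ± 0.175 (adjusted p = 0.000358). PANC1 held 17.6, 18.6 and 17.1 against 7.08, 10.3 and 11.8 CPM, a change of −0.83 ± 0.23 (adjusted p = 0.0278). Neither line showed overlap between the 2 constructs, but the PANC1 call was lost without any 1 library except OVOL2 replicate 3 (5 of 6 fits, adjusted p up to 0.095). PK45H held 56.2, 39.3 and 42.7 against 50.02, 22.3 and 17.8 CPM, and its change of −0.61 ± 0.283 did not pass (adjusted p = 0.169). OVOL2 replicate 1 was the PK45H library that stayed high, and without it the change was −1.19 and passed (adjusted p = 0.00133). Over lines MET fell by 0.86 with M2rtTA (SE 0.143, adjusted p = 9.91e-06), and without M2rtTA it changed by −0.14 ± 0.14 (adjusted p = 0.547).

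EPHA2 (chr1:16124337-16156087, minus strand), a receptor for A-type ephrins on neighbouring cells, passed over lines with M2rtTA, at 0.53 ± 0.16 (adjusted p = 0.00929). The difference between the arms, 0.58 ± 0.226, did not pass (adjusted p = 0.115), and passed without PANC1 OVOL2 replicate 1 of the arm without M2rtTA or PANC1 mCherry replicate 3 of the M2rtTA arm (0.71 in both fits, adjusted p down to 0.0357). Within lines that arm gave 34.4, 31.4 and 38.9 against 47.9, 45.5 and 65.4 CPM in KP4, 51.9, 50.6 and 103 against 138, 102 and 97.4 in PANC1, and 46.0, 38.7 and 36.9 against 50.8, 49.5 and 43.1 in PK45H. KP4 groups did not overlap, and PANC1 mCherry replicate 3, at 103 CPM, reached into the OVOL2 range. Without that library the PANC1 change was 1.17 and passed (adjusted p = 0.0275).

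FGFR4 (chr5:177086886-177098144, plus strand), an FGF receptor known from endoderm-derived organs such as liver, rose in KP4. KP4 held 2.90, 2.88 and 1.61 CPM with mCherry and 9.02, 13.0 and 10.3 CPM with OVOL2, a change of 2.10 ± 0.323 (adjusted p = 0.00155). With M2rtTA the values were 4.49, 2.05 and 4.86 against 6.72, 7.10 and 10.01 CPM, a change of 1.02 ± 0.317 (adjusted p = 0.0317). The groups did not overlap in either arm, and the M2rtTA call was lost without mCherry replicate 2 or OVOL2 replicate 3 (0.73 to 1.25 over the left-out fits). PANC1 changed by 0.80 ± 0.543 and 0.85 ± 0.531, neither passing, and PK45H had 1 to 10 counts per library and was not tested alone. The calls over lines, 0.92 ± 0.325 (adjusted p = 0.0444) and 0.80 ± 0.31 (adjusted p = 0.045), were lost in 13 and 11 of 18 left-out fits, spread over all 3 lines, with values down to 0.80 and 0.35. The lowest, 0.35, came without PK45H OVOL2 replicate 1 of the M2rtTA arm, which held 10 of the 13 FGFR4 counts of its group.

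**Figure D3:**
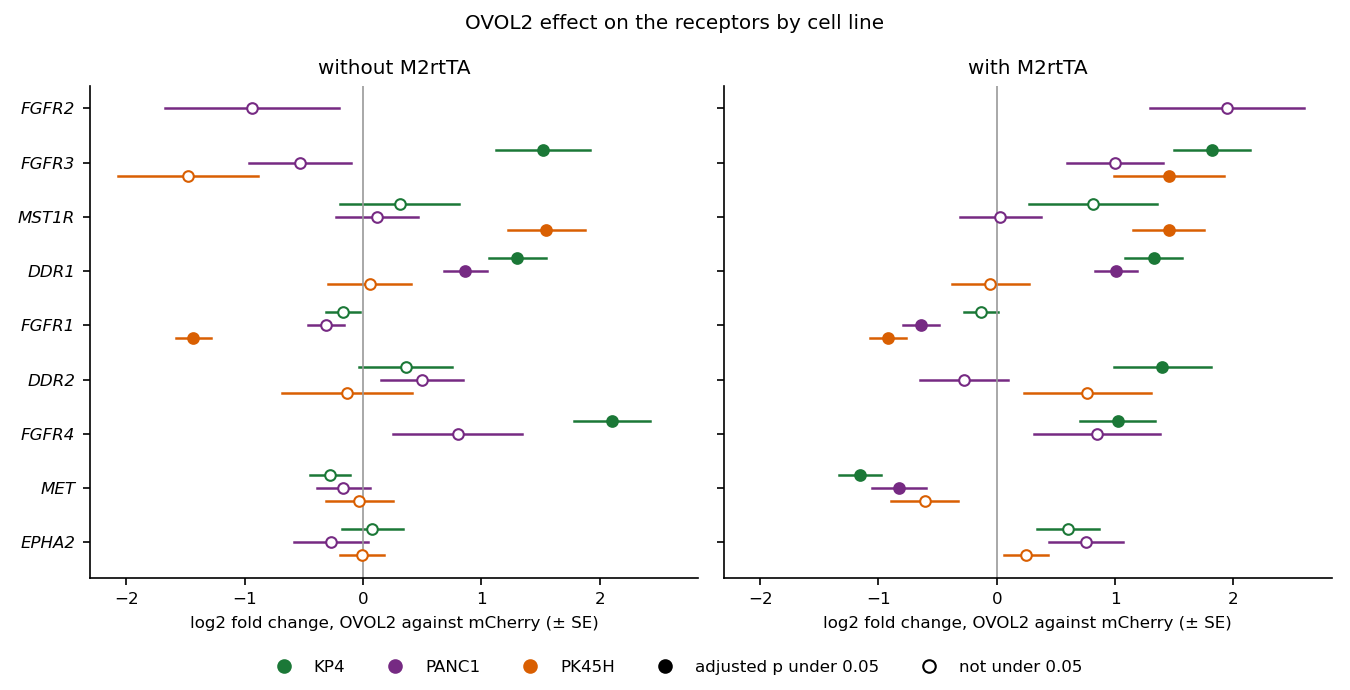
Log2 fold change of OVOL2 over mCherry for each receptor (rows) in KP4, PANC1 and PK45H, with bars of 1 SE, without M2rtTA (left) and with it (right). Filled points pass an adjusted p of 0.05, and FGFR2 in KP4 and PK45H, FGFR4 in PK45H and PDGFRB are absent because their counts were too low to test.

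By line, the receptors called were as follows. KP4 had 3 of 8 tested without M2rtTA (FGFR3, DDR1, FGFR4), against 6.82% of all genes, and 5 of 8 with it (those and DDR2 and MET), against 22.4%. PANC1 had 1 of 9 (DDR1), against 5.08%, and 3 of 9 with M2rtTA (DDR1, FGFR1, MET), against 13.9%. PK45H had 2 of 7 (MST1R, FGFR1), against 8.39%, and 3 of 7 with M2rtTA (FGFR3, MST1R, FGFR1), against 15.9%. In the plot of effects by line, DDR1 is filled for KP4 and PANC1, and MST1R for PK45H.

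Whether the OVOL2 effect differed between the 3 lines was tested with 2 degrees of freedom. Without M2rtTA, FGFR1 (adjusted p = 0.000106) and FGFR3 (adjusted p = 0.0124) differed, 2 of the 9 receptors against 2.74% of all genes. With M2rtTA, DDR1 (adjusted p = 0.0265) and FGFR1 (adjusted p = 0.019) did, against 7.56%. In the M2rtTA arm, the DDR1 difference was lost without KP4 mCherry replicate 1, PK45H mCherry replicate 3, or PK45H OVOL2 replicate 2 or 3 (adjusted p up to 0.131). The FGFR1 difference there was lost without KP4 mCherry replicate 2 or KP4 OVOL2 replicate 3 (adjusted p up to 0.0603), and both were lost in a fit of all 51 libraries (adjusted p = 0.0801 and 0.0625). FGFR3 without M2rtTA was lost when only the compared groups were fitted (adjusted p = 0.0809). Whether the effect over lines differed with M2rtTA was tested by the difference of both arms. FGFR2 (2.47 ± 0.652, adjusted p = 0.0146) and FGFR3 (1.57 ± 0.339, adjusted p = 0.00278) had a higher OVOL2 effect with M2rtTA and MET a lower one (−0.72 ± 0.2, adjusted p = 0.0205), 3 of 9 against 7.72% of all genes (2.61% with a higher effect and 5.11% with a lower one). Without PK45H mCherry replicate 2 the FGFR2 difference had an adjusted p of 0.0513. It had no adjusted p with DESeq2, with a mean count of at least 10 or after thinning, so those settings do not bear on it. FGFR2 passed the filter on low counts mainly through the OVOL2 groups with M2rtTA, so its difference is descriptive. For DDR1 that difference was −0.00 ± 0.187 with a 95% interval of −0.37 to 0.36, and for FGFR1 0.06 ± 0.11 with an interval of −0.16 to 0.27.

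The controls bear on these values. mCherry against untreated cells, and mCherry with against without M2rtTA, gave 0 receptors called by edgeR in each of the 3 lines, out of 48 tests in all. All-gene shares were 0%, 0.598% and 0.00736% for mCherry in KP4, PANC1 and PK45H and 0%, 0% and 0.0294% for M2rtTA. At an unadjusted p under 0.05 there were 3 (FGFR3 in KP4 and FGFR1 in PK45H for M2rtTA, DDR1 in PANC1 for mCherry), and DESeq2 called 1, FGFR1 in PK45H for M2rtTA. So no receptor passed the threshold by edgeR in these control comparisons, which does not show that none changed. Cells with mCherry differed from untreated cells in virus, polybrene, puromycin and doxycycline together, and these cannot be told apart.

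The untreated lines also differed in these receptors. HPAFII and PATU8988S together, against KP4, PANC1 and PK45H, had 6 of 9 receptors called, against 34.8% of the 13785 genes tested. The 4 epithelial receptors were higher: MST1R by 2.45 ± 0.242 (adjusted p = 1.97e-06), FGFR3 by 2.14 ± 0.262 (adjusted p = 1.7e-05), FGFR2 by 1.84 ± 0.46 (adjusted p = 0.00604) and DDR1 by 1.204 ± 0.226 (adjusted p = 0.000753). FGFR2 had its highest library values in HPAFII and PATU8988S and passed the filter on low counts mainly through them. FGFR4 was higher by 4.33 ± 0.227 (adjusted p = 2.98e-09) and FGFR1 lower, at −1.36 ± 0.157 (adjusted p = 9.62e-06). DDR2 (−0.59 ± 0.442, adjusted p = 0.323), MET (−0.32 ± 0.13, adjusted p = 0.0713) and EPHA2 (0.14 ± 0.196) did not pass. MET passed without HPAFII replicate 1 (−0.39, adjusted p = 0.0489) or PANC1 replicate 2 (−0.37, adjusted p = 0.0365). The DDR2 difference was −0.995 without HPAFII replicate 2 and −1.07 without PATU8988S replicate 2, and −0.32 and −0.40 without HPAFII replicate 1 or PATU8988S replicate 3, and did not pass in any of these fits (adjusted p = 0.0807 to 0.605).

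Line by line, the order of mean CPM was read with the tests of the 10 pairs of lines. Of all genes, 20.2% passed between HPAFII and PATU8988S. HPAFII differed from KP4, PANC1 and PK45H in 29.9%, 28.7% and 25.2%, and PATU8988S from them in 32.5%, 29.3% and 28.3%. KP4 against PANC1 gave 21.9%, KP4 against PK45H 23.5% and PANC1 against PK45H 25.6%. For MST1R the order was PATU8988S (28.6 ± 2.68 CPM, SD, n = 3), HPAFII (19.0 ± 2.34), PK45H (5.24 ± 0.914), PANC1 (5.15 ± 2.18) and KP4 (3.06 ± 1.94). Its only step between neighbours that passed was HPAFII to PK45H, with an adjusted p of 0.00208 by edgeR. FGFR3 ran from PATU8988S (8.93 ± 2.86) and HPAFII (7.04 ± 0.951) to PANC1 (2.55 ± 0.85), PK45H (1.61 ± 0.621) and KP4 (1.43 ± 0.798), again with 1 step, HPAFII to PANC1 (adjusted p = 0.0167). DDR1 ran from PATU8988S (24.6 ± 4.77) through HPAFII (12.9 ± 7.76), PANC1 (10.6 ± 1.73) and KP4 (7.46 ± 1.46) to PK45H (6.67 ± 1.961) with no neighbouring step that passed. HPAFII against KP4 passed for DDR1 only without HPAFII replicate 2, at 1.25 (adjusted p = 0.00303) instead of 0.93 (adjusted p = 0.0679). FGFR2 lay between 0.431 ± 0.212 CPM in PK45H and 3.49 ± 1.49 in PATU8988S, and no step between neighbours passed.

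The other receptors were ordered in another way. FGFR1 was highest in PK45H (65.3 ± 9.01 CPM) and KP4 (55.0 ± 2.87), which did not differ beyond their spread, then in HPAFII (27.9 ± 8.37) and PANC1 (23.1 ± 3.10), and lowest in PATU8988S (9.998 ± 2.70). The steps from KP4 to HPAFII (adjusted p = 0.00789) and from PANC1 to PATU8988S (adjusted p = 0.00142) passed. So HPAFII and PATU8988S differ from each other in FGFR1, by 1.51 ± 0.245 (adjusted p = 0.000586). FGFR4 stood at 120, 135 and 166 CPM in PATU8988S, against 13.6, 7.04 and 12.9 in HPAFII, a KP4 range of 3.62 to 4.76, a PANC1 range of 2.02 to 4.99 and a PK45H range of 0.330 to 1.01. Each step in that order passed except KP4 to PANC1. MET was higher in PK45H (41.2 ± 2.91) and KP4 (39.9 ± 3.02) than in PATU8988S (26 ± 1.46, step adjusted p = 0.0303), HPAFII (23.9 ± 6.51) and PANC1 (19.3 ± 3.55). Without HPAFII replicate 2, MET no longer differed from KP4 at the threshold (adjusted p = 0.0502) and differed from PANC1 (adjusted p = 0.0476). EPHA2, from 39.6 ± 5.84 in PK45H to 66.8 ± 3.77 in PANC1, and DDR2, from 1.28 ± 1.13 in PATU8988S to 3.48 ± 0.986 in KP4, gave no pair of lines that passed. HPAFII replicate 2 held 6.26 CPM of DDR2 beside 0.648 and 2.16 in its mates, and without it HPAFII against KP4 moved from −0.41 to −1.22 (adjusted p = 0.196). Without HPAFII replicate 2, EPHA2 in HPAFII and PK45H differed (0.93, adjusted p = 0.02).

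**Figure D4:**
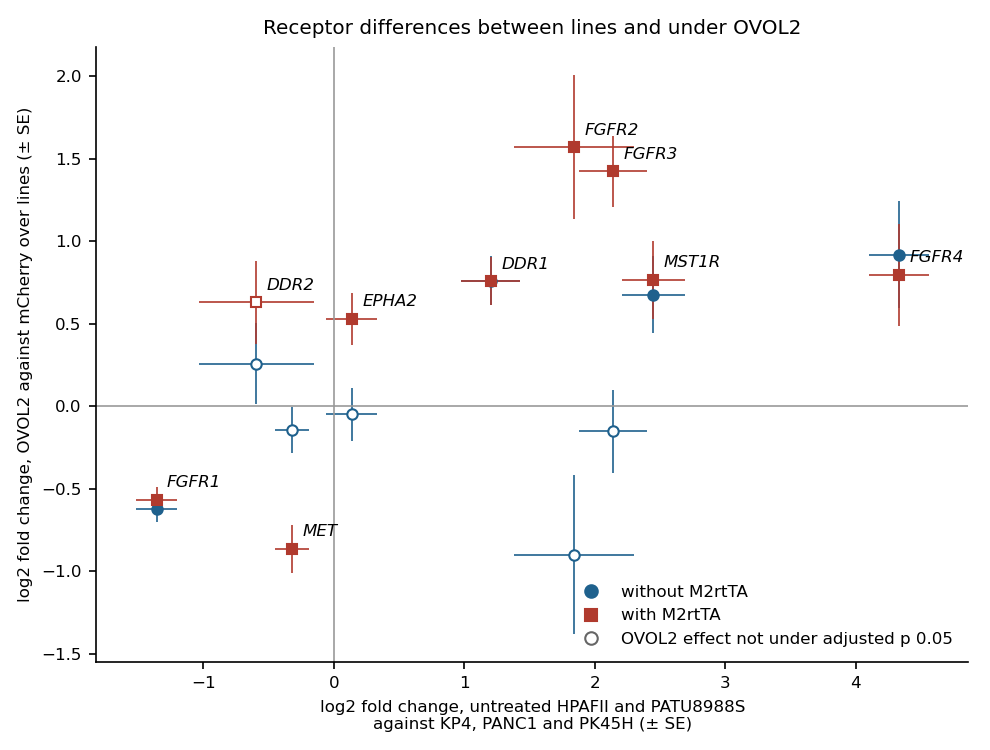
For each receptor, the log2 difference of untreated HPAFII and PATU8988S from KP4, PANC1 and PK45H (x axis) and the log2 fold change of OVOL2 over mCherry averaged over lines (y axis), without M2rtTA (circles) and with it (squares), with bars of 1 SE. Open symbols mark an OVOL2 effect that did not pass, and FGFR2 and FGFR3 lie below 0 without M2rtTA and above 1 with it.

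The plot of line differences against OVOL2 effects sets both comparisons side by side. The groups they contrast share no libraries. The fit behind the OVOL2 effects also held the untreated libraries of KP4, PANC1 and PK45H, so the 2 fits are not independent. Among all genes called between the untreated lines, 34.3% were called in the same direction with OVOL2 and M2rtTA (33.5% of those called there) and 20.8% without M2rtTA (36.5% of those called there). All 6 receptors called between untreated lines were also called with OVOL2 and M2rtTA in the same direction (6 of 6, and 6 of the 8 called there), and 4 of 6 without M2rtTA (4 of the 4 called there). MET and EPHA2 were called with OVOL2 and M2rtTA and not between the untreated lines. Because the receptors were chosen with earlier results of these data known, these counts describe the receptors only. The levels reached with OVOL2 differed by gene and by line. KP4 OVOL2 libraries with M2rtTA held 8.35 ± 0.510 CPM of FGFR3 beside 7.04 ± 0.951 in HPAFII, while PANC1 and PK45H held 4.06 ± 0.759 and 2.35 ± 0.515. PK45H OVOL2 libraries with M2rtTA held 18.5 ± 5.68 CPM of MST1R beside 19.0 ± 2.34 in HPAFII, while KP4 and PANC1 held 3.69 ± 1.59 and 4.604 ± 0.466. FGFR4 in KP4 OVOL2 libraries, at 10.8 ± 2.00 CPM, stood beside 11.2 ± 3.61 in HPAFII and 140 ± 23.4 in PATU8988S, and at 3.72 ± 2.30 in PANC1 and 0.791 ± 0.327 in PK45H. These levels were not tested against each other.

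**Figure D5:**
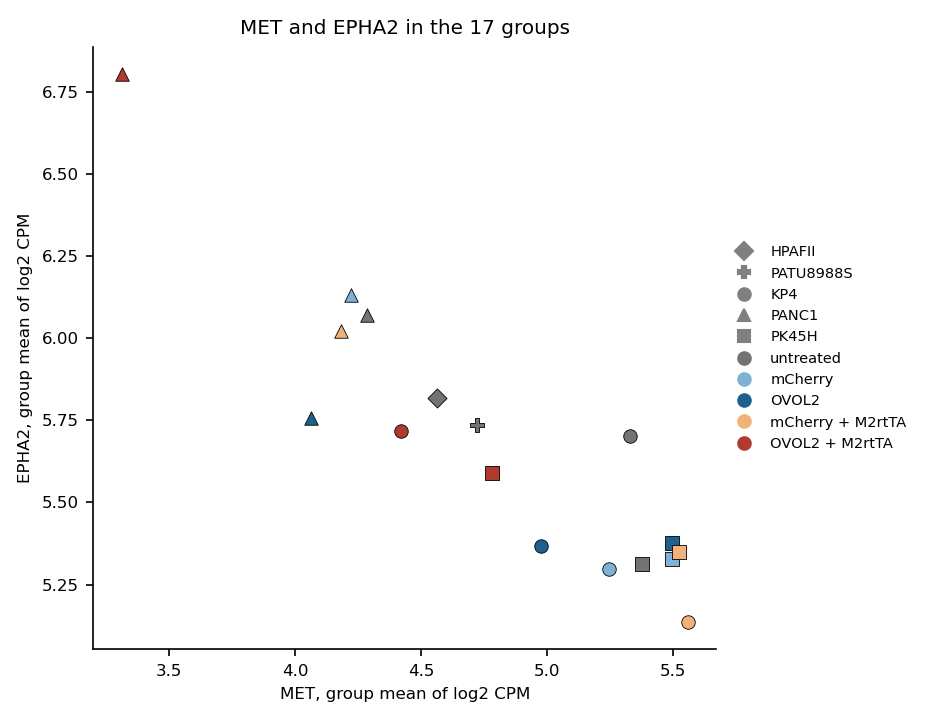
Mean log2 CPM of MET (x axis) and of EPHA2 (y axis) in each of the 17 groups, with the line given by the symbol and the treatment by the colour. Groups with more MET have less EPHA2, from PANC1 with OVOL2 and M2rtTA at the upper left to KP4 with mCherry and M2rtTA at the lower right.

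MET and EPHA2 moved against each other over the groups. Over the 17 group means of log2 CPM, Pearson's r between them was −0.914, against −0.696 for DDR1 with FGFR1 and 0.701 for FGFR1 with MET. Among all pairs of receptors compared, this r lay furthest from 0, so it is the extreme of many values. Within a line, over 5 group means, the MET and EPHA2 value was −0.933 for PK45H, −0.842 for PANC1 and −0.624 for KP4. Over the 15 libraries of a line it was −0.157, −0.49 and −0.346 in the same order. The groups share lines and treatments, so these values describe the groups and are not replicate evidence. Among the epithelial receptors r was 0.76 for FGFR3 with DDR1 and 0.271 for MST1R with DDR1, and DDR2 had 0.338 with FGFR1.

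Other genes with patterns most like a receptor's over the 17 groups were ranked among 15229 genes, for the 6 receptors with a mean of at least 5 CPM. MST1R was closest to SLC39A4 (r = 0.967), SHROOM3 (0.954) and SEMA3B (0.949). DDR1 was closest to TMC4 (0.904), SH3YL1 (0.897) and the tight-junction gene CLDN3 (0.897). FGFR1 was closest to WDR54 (0.951), SIRPA (0.922) and SEPTIN3 (0.902), and FGFR4 to SPATA20 (0.946), MED11 (0.918) and GTPBP6 (0.909). FGFR4 reached that mean only through PATU8988S, with 3.77 CPM over the other 16 groups, and without that group, a check added after the values were seen, the 3 values were 0.903, 0.807 and 0.834. MET was closest to CDC123 (0.94), ITFG2 (0.938) and ERI1 (0.93), and EPHA2 to ALPG (0.913), ABCC1 (0.884) and TNNI3 (0.881).

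Genes around the receptors were read from 4 lists, beside 18.1% of all genes called over lines without M2rtTA and 32.9% with it. Of 23 coreceptor and activator genes, 17 were tested over lines, with 4 higher and 2 lower in the arm without M2rtTA and 4 higher and 3 lower in the other (35.3% and 41.2%). SPINT1, an inhibitor of the proteases that activate hepatocyte growth factor, rose by 2.25 ± 0.193 (adjusted p = 6.55e-11) and 2.24 ± 0.19 (adjusted p = 1.52e-11), for example from 4.96 to 11.3 CPM with mCherry to 51.7 to 76.2 with OVOL2 in PANC1. Its relative SPINT2 rose by 0.72 ± 0.174 and 0.71 ± 0.174. ST14, which encodes matriptase, one of those proteases, went from 0.266 to 0.902 CPM to 4.30 to 5.77 in PANC1, and its calls over lines had adjusted p-values of 0.00139 and 1.35e-05. SDC1, a heparan sulphate coreceptor, fell by 1.74 without (SE 0.131) and by 1.85 with M2rtTA (SE 0.132), although untreated HPAFII and PATU8988S had more of it (1.49, adjusted p = 1.14e-06). CD44, a coreceptor of MET, fell by 0.53 and by 0.84. The list's median change was −0.11 without and 0.04 with M2rtTA, against 0.00 and 0.03 over all genes.

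Of 40 ligand genes, 25 were tested, with 2 called without M2rtTA and 6 with it (8% and 24%, below the shares over all genes), and medians of −0.13 and 0.19. Averaged over lines, EFNA3, an ephrin that EPHA2 binds, rose in both arms (0.67 ± 0.143 and 1.17 ± 0.143). The collagen gene COL3A1 fell in both (−0.89 ± 0.24 and −1.18 ± 0.225). Within lines, EFNA3 passed in each with M2rtTA and in none without it. COL3A1 passed in KP4 in both arms and in PANC1 only with M2rtTA. It was not tested in PK45H alone, where the means with M2rtTA were 1.19 CPM with mCherry and 1.87 with OVOL2. COL1A1, a collagen that DDR1 and DDR2 bind, rose by 1.72 ± 0.144 with M2rtTA (adjusted p = 1.19e-11) and changed by 0.31 ± 0.152 without it (adjusted p = 0.17). Of 26 adaptors and brakes, 25 were tested, with 3 higher and 2 lower in the arm without M2rtTA and 3 higher and 7 lower in the other. These made 20% and 40%, beside 18.1% and 32.9% of all genes, with medians of 0.03 and −0.11. Averaged over lines, the FGF receptor adaptor FRS2 rose (0.48 ± 0.17 and 0.43 ± 0.166, adjusted p = 0.0454 and 0.0449). SOS2, an activator of RAS (−0.65 ± 0.173 and −0.78 ± 0.176), and SPRED1, a brake on RAS signalling (−0.38 ± 0.134 and −0.55 ± 0.133), fell. Within lines, FRS2 passed only in PANC1 with M2rtTA and was at −0.32 in PK45H with M2rtTA. SOS2 passed only in KP4. SPRED1 passed only in KP4 and PANC1 with M2rtTA, and was at 0.14 in PANC1 without M2rtTA and −0.01 in PK45H with it.

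Of 48 other receptor tyrosine kinases, 31 were tested, with 3 higher and 3 lower in the arm without M2rtTA and 5 higher and 2 lower in the other. These made 19.4% and 22.6%, beside 18.1% and 32.9% of all genes, with medians of −0.11 and −0.15. LMTK3, a kinase of the lemur family, rose by 1.25 ± 0.227 (adjusted p = 0.00011) and by 2.66 ± 0.192 (adjusted p = 3.39e-13), and KP4 libraries went from 3.84 to 7.41 CPM with mCherry and M2rtTA to 42.4 to 52.1 with OVOL2. EGFR, the epidermal growth factor receptor, rose by 0.68 ± 0.0875 and 0.74 ± 0.0876, although untreated HPAFII and PATU8988S had less of it (−0.39, adjusted p = 0.0265). EPHA1 rose by 1.22 ± 0.354 and 1.21 ± 0.337 over lines. Within lines EPHA1 passed only in KP4, where mCherry libraries without M2rtTA held at most 3 counts. It did not pass in PK45H (adjusted p = 0.696 without and 0.106 with M2rtTA) and was not tested in PANC1 alone. The PANC1 means with M2rtTA were 0.967 CPM with mCherry and 0.955 with OVOL2. EPHB2 fell in both arms by 0.36 over lines (adjusted p = 0.0304 and 0.0185) and was higher in untreated HPAFII and PATU8988S (0.43, adjusted p = 0.015). Within lines EPHB2 passed only in PANC1 with M2rtTA, and it was at 0.01 in PK45H with M2rtTA.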

How the data were processed

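Gene counts came from PLATE-seq of 51 libraries in 17 groups of 3, each from 100 ng of total RNA per the labels' protocols. The values deposited by the authors were whole-number counts per gene symbol, without normalisation. The submitters' processing notes name kallisto 0.44.0 and GRCh38. kallisto estimates counts, so rounding by the authors is possible, and genes with similar 3′ ends can share reads. The handling of molecular identifiers is not given in the sources used here, so intervals cover the spread between libraries, and count limits cover counting error only. Symbols were used as deposited, and 24193 of 25421 matched a current symbol, including all 10 receptors.

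In R 4.3.3, edgeR 4.0.16 was fitted with filterByExpr by group, TMM scaling and quasi-likelihood tests, two-sided, with Benjamini-Hochberg adjustment over all genes tested and a threshold of 0.05. One fit held 15 libraries per transduced line, one the 45 libraries of the 15 groups over lines, and one the 15 untreated libraries. SE values were derived from the test statistic, and 95% intervals assume normal errors. CPM (counts scaled to library size) used TMM factors of all 51 libraries. The fits were tested on simulated data. Replicate numbers were not seen to pair libraries. Named genes were the 10 receptors, up to 4 genes per list and direction called over lines in both arms, and the 3 genes most like each receptor; COL1A1 was named after its values were seen. The members and lists were chosen with earlier results of these data known. Promoter windows came from RefSeq (GRCh38.p14) and gene positions from GENCODE 29. Alternatives were DESeq2 1.42.0, robust dispersion, RLE size factors, dropping the filter or keeping genes with a mean count of 10 or more, fits of the compared groups or of all 51 libraries, random thinning to the smallest library, a replicate block and leaving out each library. Thinning was repeated in 10 further draws, a choice made after seeing the data, because draws differed in their calls.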

Additional observations from a re-analysis of the deposited data

Results flagged for a closer look

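In 7 cases the OVOL2 effect on a receptor differed between lines or between arms by a test of the difference itself (edgeR, adjusted over all genes). Between lines, the effect differed without M2rtTA for FGFR3 (adjusted p = 0.0124) and FGFR1 (adjusted p = 0.000106), against 2.74% of all genes. With M2rtTA it differed for DDR1 (adjusted p = 0.0265) and FGFR1 (adjusted p = 0.019), against 7.56%. Both calls with M2rtTA were lost in a fit of all 51 libraries (adjusted p = 0.0801 and 0.0625). The FGFR3 call was lost when only the compared groups were fitted (adjusted p = 0.0809). Between the arms with and without M2rtTA, the effect over lines differed for FGFR2 (adjusted p = 0.0146), FGFR3 (adjusted p = 0.00278) and MET (adjusted p = 0.0205), against 7.72% of all genes. The MET call was lost after thinning to the smallest library (adjusted p = 0.0635). The FGFR2 call was lost without PK45H mCherry replicate 2 (adjusted p = 0.0513), and FGFR2 passed the filter on low counts mainly through the OVOL2 groups with M2rtTA. FGFR1 differed between lines in both arms, with its largest falls in PK45H and changes that did not pass in KP4. The OVOL2 count itself was higher with M2rtTA and not without it, and its part in the differences between arms was not tested.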

How the results depend on the processing

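No called receptor reversed in the counts that follow, which take the 10 further thinned draws by their median. In single draws the called FGFR4 rise over lines without M2rtTA ran from −0.32 to 1.22, so it changed sign in at least 1. Over 84 results, 685 of 747 values under alternatives that kept all libraries, and 949 of 1071 with 1 library left out, kept direction and side of the threshold. Values with no adjusted p under a setting were left out of these counts and not counted as lost. Among them were the FGFR2 difference between arms with DESeq2, a mean count of 10 or more and thinning, and that of FGFR3 with thinning. A further 16 and 47 were sign changes of values called in neither fit, and the rest lost or gained a call. Thinning every library to the smallest total gave 2 of 4 receptors over lines without M2rtTA and 4 of 8 with it, 1 of 2 and 0 of 2 for the differences between lines, and 0 of 3 for the difference with M2rtTA. By line it gave 1 of 3 and 1 of 5 in KP4, 0 of 1 and 1 of 3 in PANC1, 1 of 2 and 1 of 3 in PK45H, and 26 of 41 calls over pairs of untreated lines. Because 1 draw is random, 10 further draws were added after seeing the data. By median adjusted p they gave 1 and 4 over lines, 1 and 0 for the differences between lines, 0 for the difference with M2rtTA, 1 and 2 in KP4, 0 and 0 in PANC1, 1 in PK45H without M2rtTA, and 27 over pairs. Over lines with M2rtTA, FGFR1 and MET were called in 10 of 10 draws, EPHA2 in 9, DDR1 in 8, MST1R in 3 and FGFR4 in 1 (of 9 that tested it). FGFR3 had counts enough in 3 draws and FGFR2 in 0. Over lines without M2rtTA, FGFR1 was called in 10 draws, DDR1 in 5, and MST1R and FGFR4 in 0. No filter gave 2 of 4 over lines without M2rtTA. A fit of the compared groups gave 1 of 2 and 0 of 2 for the differences between lines, 3 of 5 in KP4 with M2rtTA, and 0 of 1 in PANC1 and 1 of 2 in PK45H without it. A fit of all 51 libraries gave 0 of 2 for the difference between lines with M2rtTA and 0 of 1 in PANC1 without it, and DESeq2 gave 1, not 0, for M2rtTA alone in PK45H. With 1 library left out the counts were 2 to 4 over lines without M2rtTA, 1 to 2 for the difference between lines with it, 3 to 5 in KP4 with it and 0 to 1 in PANC1 without it. Thinning leaves fewer counts and fewer genes tested; for the other settings the cause was not tested. For the 5 untreated lines together the fit already held the compared groups alone.

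Calls over all genes moved by over 1.5 times in these cases. Thinning gave 1524 of 2710 over lines without M2rtTA, 3182 of 4923 with it, 207 of 409 and 451 of 1129 for the differences between lines, 440 of 1154 for the difference with M2rtTA, 362 of 932 and 1692 of 3057 in KP4, 317 of 671 and 1018 of 1843 in PANC1, 553 of 1139 and 1073 of 2153 in PK45H, 3109 of 4794 for HPAFII and PATU8988S against the others, and 1743 to 2914 over the 10 untreated pairs against 2783 to 4487. A fit of the compared groups gave 246 and 487 for the differences between lines, 532 (KP4), 302 (PANC1) and 628 (PK45H) by line in the arm without M2rtTA, 1424 for PK45H in the other, and, for HPAFII, 1714 of 2783 against PATU8988S, 2692 of 4128 against KP4, 2444 of 3958 against PANC1 and 2154 of 3470 against PK45H. For mCherry against untreated cells in PANC1, the 79 genes became 44 after thinning, 23 with the compared groups, 132 with all 51 libraries and 184 with DESeq2. In KP4 and PK45H, 0 and 1 became 11 and 44 with all 51 libraries and 6 and 42 with DESeq2. For M2rtTA alone, 0, 0 and 4 (KP4, PANC1, PK45H) became 23, 27 and 28 with all 51 libraries and 15, 24 and 98 with DESeq2, and the 4 became 1 with the compared groups and 2 after thinning. With 1 library left out, the arm without M2rtTA gave 471 to 566 (KP4), 343 to 422 (PANC1) and 701 to 943 (PK45H), PK45H with M2rtTA gave 1387 to 1694, mCherry in PANC1 gave 27 to 60, and the controls with 4 genes or fewer gave 0 to 18.

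The replicate block gave 2 receptors instead of 3 in PK45H with M2rtTA, where FGFR3 had 1.47 at an adjusted p of 0.0542, 39 instead of 41 over pairs of untreated lines, and the same count in the other comparisons. Same-numbered libraries had correlations of −0.176 to 0.152 over 90 pairs, 4 of them above 0.1, so the numbers were not taken as pairs. Depth limits PDGFRB and FGFR2, at 3 counts or fewer in 49 and 20 of 51 libraries.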
